A study of Homo sapiens with 12 samples.

Results

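The long noncoding RNAs (lncRNAs) that carry small nucleolar RNAs (snoRNAs) in their introns, the snoRNA host lncRNAs, were examined in NCI-H295R cells. Members were the genes whose symbol is SNHG followed by digits only, together with GAS5, ZFAS1 and EPB41L4A-AS1, provided that their mean over the 12 samples was at least 0.5 TPM, a unit that gives each gene's share of all transcripts in a library, corrected for transcript length. Of the 60662 genes in the table, 31 carried such a name and 27 reached this level. All 27 also passed the filter on low values, 0.5 TPM or more in 4 or more samples, which left 16815 genes for testing. The member closest to the limit was SNHG26 with a mean of 0.877 TPM, and the 4 names left out were SNHG27 (0.244 TPM), SNHG31 (0.227 TPM), SNHG28 (0.179 TPM) and SNHG18 (0.03 TPM).

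NCI-H295R is one line of human adrenocortical carcinoma cells that makes cortisol, and it stood for adrenocortical cells throughout. All cultures were kept without serum for 12 h before treatment. They were then treated for 24 h with vehicle (VEH, 0.1% DMSO), with 30 µM of the benzimidazolylurea derivative CJ28, or with 30 µM metyrapone (MET), an inhibitor of 11β-hydroxylase. Each treatment had 4 samples, and the study set out to compare the effects of these cortisol synthesis inhibitors on RNA levels across the genome.

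SnoRNAs guide the chemical modification of ribosomal RNA, and in human cells most of them are cut out of the introns of longer host transcripts. The spliced remainder of a noncoding host is exported to the cytoplasm, where ribosomes read its short open reading frames and stop far upstream of the last splice junction. Such a stop exposes the transcript to nonsense-mediated decay (NMD), which needs ongoing translation, so that these hosts are known to accumulate when translation is slowed. Several hosts begin with the terminal oligopyrimidine (TOP) motif of ribosomal protein genes, a C followed by a run of pyrimidines. GAS5 owes its name to its accumulation in growth-arrested cells.

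The 27 members lay on 14 chromosomes. In the GENCODE v44 annotation of GRCh38 their canonical transcripts had 2 to 57 exons and 311 to 7005 spliced nucleotides, and 15 of the 27 genes had the same span there as in the deposited table. The open reading frame that starts at the first AUG was 2 to 67 codons long in those with one. Its stop lay more than 50 nucleotides before the last exon junction in 24 of 27 members (88.9%), against 1223 of 1701 other tested lncRNAs with more than 1 exon (71.9%). The 3 members without such a stop were SNHG3, SNHG9, which has no AUG-started frame in that transcript, and SNHG25. For GAS5 the annotation gave 12 exons, 768 nucleotides and a first frame of 50 codons. These are features of the annotation, and translation was not measured.

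The first bases of hosts are shown because members were compared by whether their annotated start carries the TOP motif. The motif was searched as a C followed by at least 4 pyrimidines (C or T) on the transcribed strand, at the RefSeq start in GRCh38.p14. RefSeq windows were at hand for 23 of the 27 members (not SNHG6, SNHG9, SNHG15 and SNHG25). The motif stood at the start of 6 of the 23 (26.1%), against 4.07% of 35116 RefSeq windows and 5.05% of the 15419 windows of tested genes. Within 10 bases of the start it was found in 14 of 23 (60.9%), against 33.5% of all windows and 33.9% of those of tested genes. The following lines give 10 bases before and 50 bases from the RefSeq start, with the pyrimidine run in capitals where there is one, for the 6 hosts with the motif and then for 4 without it.
ZFAS1: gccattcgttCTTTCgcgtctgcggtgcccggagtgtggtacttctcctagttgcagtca
SNHG32: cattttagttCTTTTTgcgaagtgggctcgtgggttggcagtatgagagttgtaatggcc
SNHG5: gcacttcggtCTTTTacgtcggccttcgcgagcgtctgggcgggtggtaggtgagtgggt
SNHG12: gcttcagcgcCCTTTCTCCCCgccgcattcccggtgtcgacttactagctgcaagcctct
SNHG4: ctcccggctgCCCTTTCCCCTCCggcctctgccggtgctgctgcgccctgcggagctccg
SNHG19: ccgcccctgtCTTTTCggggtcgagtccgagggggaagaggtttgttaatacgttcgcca
SNHG1: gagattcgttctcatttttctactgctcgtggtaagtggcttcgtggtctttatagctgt
SNHG8: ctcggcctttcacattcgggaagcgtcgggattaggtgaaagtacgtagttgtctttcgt
EPB41L4A-AS1: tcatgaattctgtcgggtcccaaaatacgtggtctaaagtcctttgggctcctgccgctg
SNHG10: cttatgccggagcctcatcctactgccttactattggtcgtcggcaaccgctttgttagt

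These windows are chr20:49278632-49278691 (plus strand) for ZFAS1, chr6:31834906-31834965 (plus) for SNHG32, chr6:85678684-85678743 (minus) for SNHG5 and chr1:28581824-28581883 (minus) for SNHG12. Those of SNHG4, SNHG19 and SNHG1 are chr5:139274091-139274150 (plus), chr16:2155309-2155368 (minus) and chr11:62855836-62855895 (minus). Those of SNHG8, EPB41L4A-AS1 and SNHG10 are chr4:118278752-118278811 (plus), chr5:112160516-112160575 (plus) and chr14:95534823-95534882 (minus). The RefSeq start equalled the deposited start in 6 members and lay over 100 bases from it in 10. GAS5 and SNHG29 showed no pyrimidine run at the RefSeq start, but their GENCODE v44 canonical transcripts begin with one, shown by their first 30 bases.
GAS5: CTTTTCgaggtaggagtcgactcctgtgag
SNHG29: CTTTTCattcccgttgttatggagggccac

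The labelled cell type was checked against its markers. The adrenocortical genes NR5A1, STAR, CYP11A1, CYP17A1, CYP21A2, HSD3B2 and MC2R were all measured. In VEH, HSD3B2 (0.863 ± 0.0873 TPM) and MC2R (1.04 ± 0.161 TPM) were low, and the others ran from 28.9 TPM (CYP21A2) to 92.6 TPM (CYP11A1). All 7 were lower in CJ28 than in VEH, from a log2 fold change of -0.69 (CYP21A2) to -2.35 (CYP17A1), where 37.1% of all genes were lower. Of 4 markers of other cells, the leukocyte gene PTPRC reached at most 0.06 TPM and the endothelial gene PECAM1 at most 0.05 TPM in any sample. The fibroblast gene COL1A1 ranged from 0.05 to 0.85 TPM, and the epithelial gene EPCAM, the only one of the 4 past the filter, was lower in CJ28 (3.66 ± 0.493 TPM) than in VEH (4.73 ± 0.446 TPM, adjusted p = 0.00848). Their part in the results was not tested. In bulk RNA, fewer cells of a type and less RNA per cell cannot be told apart.

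In VEH-treated cells, the hosts spanned a wide range of levels, from 0.897 ± 0.272 TPM for SNHG26 to 116 ± 2.49 TPM for SNHG29 (mean ± SD, n = 4 here and below). SNHG29, GAS5 (64.7 ± 2.89 TPM), SNHG6 (49.0 ± 2.34 TPM), SNHG5 (47.4 ± 4.99 TPM) and SNHG1 (30.1 ± 0.693 TPM) led the order. Of the 26 pairs of neighbours in this order, 7 had no overlap between their samples, among them SNHG29 over GAS5, GAS5 over SNHG6 and SNHG5 over SNHG1. The remaining neighbours did not differ beyond their spread. In CJ28, GAS5 stood first (265 ± 8.95 TPM), above SNHG29 (133 ± 1.15 TPM) and SNHG32 (77.1 ± 2.41 TPM), and all of these steps were without overlap. SNHG32 moved from position 7 to 3, EPB41L4A-AS1 from 20 to 13 and SNHG10 from 17 to 23, while MET kept SNHG29, GAS5, SNHG6, SNHG5, SNHG1, ZFAS1 and SNHG32 in the VEH order. Levels are per transcript length, since TPM is.

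**Figure D1:**
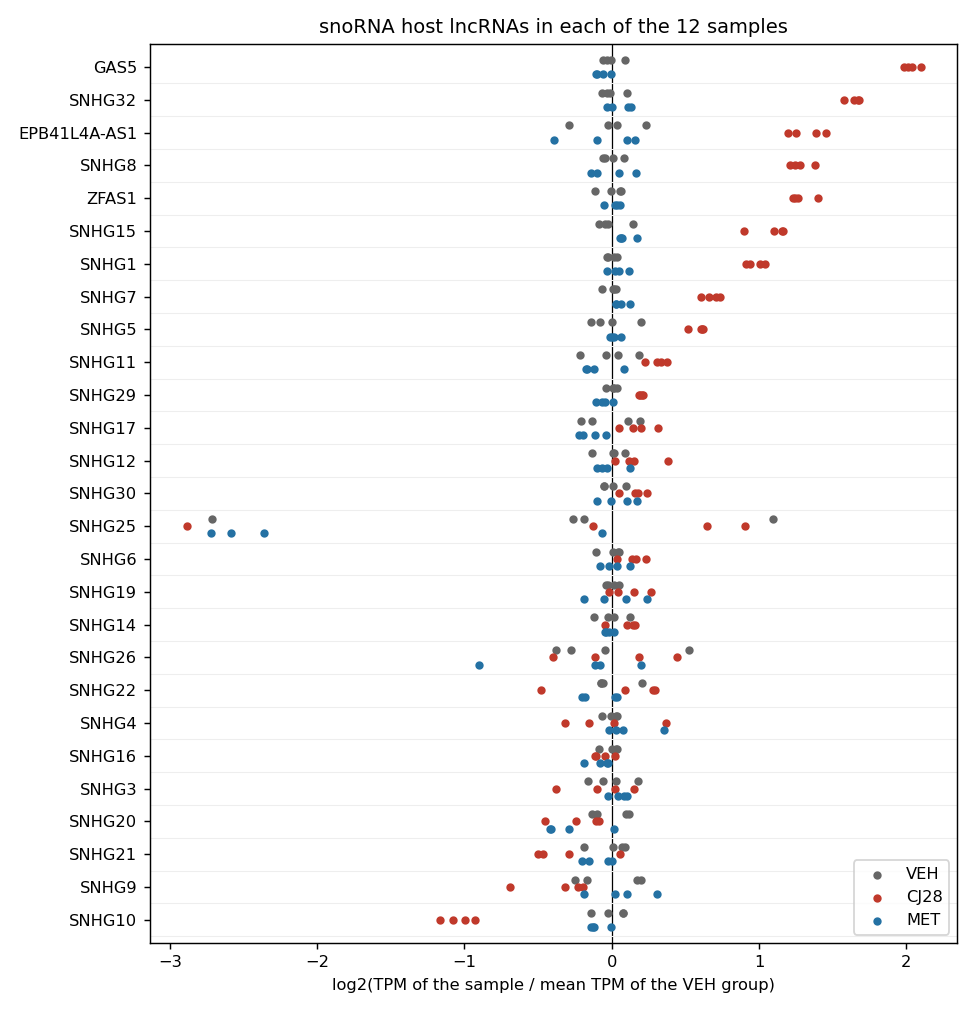
Each point is 1 sample of 1 host lncRNA, placed by the log2 of its TPM over the mean TPM of the VEH group, with VEH in grey, CJ28 in red and MET in blue. The CJ28 points of 11 hosts lie to the right of every VEH point, those of SNHG10 lie to the left, and MET points overlap the VEH points in all 27 hosts.

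The comparison of CJ28 with VEH asked how the compound changed RNA levels. More hosts were raised than lowered, and 12 of 27 passed in neither direction. GAS5 rose 4.09-fold, SNHG32 3.11-fold, and EPB41L4A-AS1, SNHG8, ZFAS1 and SNHG15 between 2.12-fold and 2.50-fold, whereas SNHG10 fell to 0.492 of its VEH level. By limma on log2(TPM + 0.1) with Benjamini-Hochberg adjustment over all genes tested, 12 of the 27 hosts were higher (44.4%) and 3 lower (11.1%) at an adjusted p under 0.05. Over all genes tested, 19.9% were higher and 37.1% lower. The median log2 fold change was 0.15 over the hosts and -0.13 over all genes, and 23 of the 27 hosts lay above the all-gene median. In 11 hosts every CJ28 sample was above every VEH sample and in 1 every CJ28 sample was below, against 17.7% and 32.7% of all genes.

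TPM is a share of each library, and the shares of all genes moved with CJ28. Nuclear protein-coding genes took 21.3 to 21.4% of TPM in CJ28 samples and 24.3 to 24.8% in VEH samples. When TPM was divided by median-of-ratios factors, the all-gene median moved from -0.13 to 0.014, with 4925 genes higher and 4430 lower in place of 3346 and 6231. When it was rescaled to nuclear protein-coding genes, the median became 0.064, with 5562 higher and 3935 lower. The hosts then gave 17 higher and 1 lower under the first scaling and 18 higher and 1 lower under the second, and the log2 fold change of GAS5 was 2.19 and 2.24. Which scaling stands nearer to RNA amounts per cell was not tested.

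**Figure D2:**
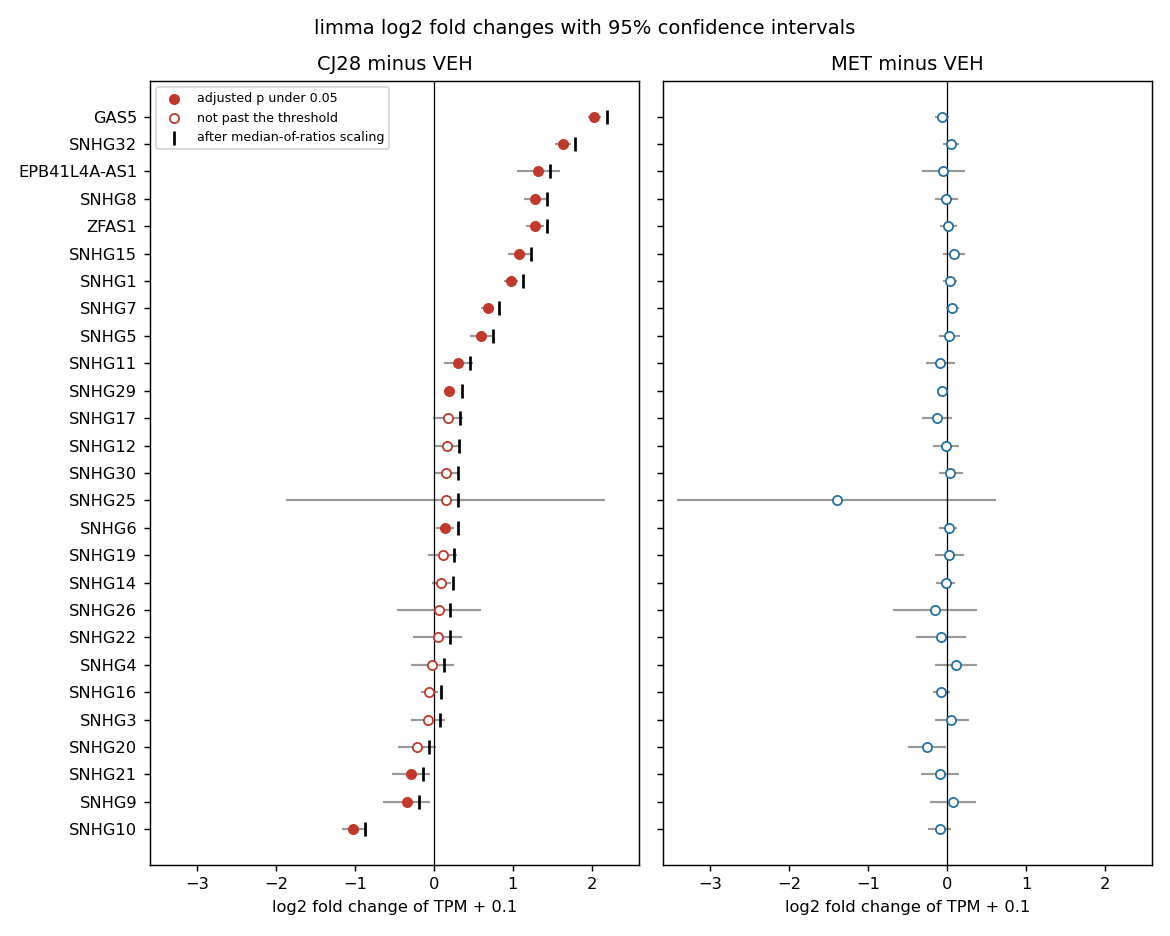
Circles are limma log2 fold changes of TPM + 0.1 with 95% confidence intervals as grey lines, for CJ28 minus VEH on the left and MET minus VEH on the right, filled where the adjusted p was under 0.05. On the left, 12 hosts are filled to the right of 0 and 3 to its left, black ticks give the values after median-of-ratios scaling, and on the right none is filled.

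GAS5, the host best known for its rise in starved and growth-arrested cells and for a stem that binds the glucocorticoid receptor, gave 63.2, 64.5, 68.8 and 62.2 TPM in VEH and 265, 260, 277 and 256 TPM in CJ28. The groups were far apart, with the lowest CJ28 sample above the highest VEH sample by several times the spread within either group. Its log2 fold change was 2.03 (SE 0.038, 95% interval 1.95 to 2.12, adjusted p = 1.25e-12). Only 56 of the 16815 genes (0.333%) had a larger log2 fold change.

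SNHG32, the host of SNORD48 and SNORD52, gave 23.6, 24.5, 26.6 and 24.2 TPM in VEH and 78.9, 78.8, 77.1 and 73.7 TPM in CJ28, with no overlap. Its log2 fold change was 1.64 (SE 0.047, adjusted p = 3.18e-11), exceeded by 115 genes (0.684%). EPB41L4A-AS1, a transcript that overlaps EPB41L4A on the other strand and holds SNORA13, gave 8.58, 8.97, 10.3 and 7.15 TPM in VEH and 20.8, 24.0, 22.8 and 20.0 TPM in CJ28. It was the most variable of the strongly raised hosts, yet its CJ28 samples were all above its VEH samples. Its log2 fold change was 1.32 (SE 0.13, adjusted p = 1.83e-06).

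SNHG8, the host of SNORA24, gave 19.8, 21.7, 20.6 and 19.5 TPM in VEH and 53.1, 48.3, 49.5 and 47.2 TPM in CJ28. ZFAS1, which lies head to head with the zinc finger gene ZNFX1 and carries SNORD12 snoRNAs, gave 29.8, 28.5, 29.8 and 26.5 TPM in VEH and 67.7, 68.8, 75.6 and 67.1 TPM in CJ28. SNHG15 gave 21.5, 24.6, 21.8 and 20.9 TPM in VEH and 49.5, 47.7, 49.7 and 41.4 TPM in CJ28. In each of these the groups stood apart with a CJ28 mean over 2 times the VEH mean. The log2 fold changes were 1.28 for SNHG8 (SE 0.065, adjusted p = 5.21e-09), 1.28 for ZFAS1 (SE 0.049, adjusted p = 3.83e-10) and 1.08 for SNHG15 (SE 0.065, adjusted p = 2.38e-08).

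SNHG1, the host of SNORD22 and a series of other box C/D snoRNAs, gave 30.4, 29.5, 30.9 and 29.5 TPM in VEH and 60.5, 57.7, 62.0 and 56.7 TPM in CJ28. Both groups were tight, and the log2 fold change was 0.98 (SE 0.040, adjusted p = 7.46e-10). SNHG7, a host of SNORA17B, gave 20.8, 21.1, 19.7 and 20.7 TPM in VEH and 32.6, 33.7, 34.4 and 31.4 TPM in CJ28. SNHG5, the host of SNORD50B, gave 42.9, 44.8, 54.3 and 47.5 TPM in VEH and 72.9, 72.2, 72.5 and 67.9 TPM in CJ28. These were smaller rises, still without overlap, with a log2 fold change of 0.68 for SNHG7 (SE 0.039, adjusted p = 1.68e-08) and 0.60 for SNHG5 (SE 0.060, adjusted p = 3.16e-06).

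**Figure D3:**
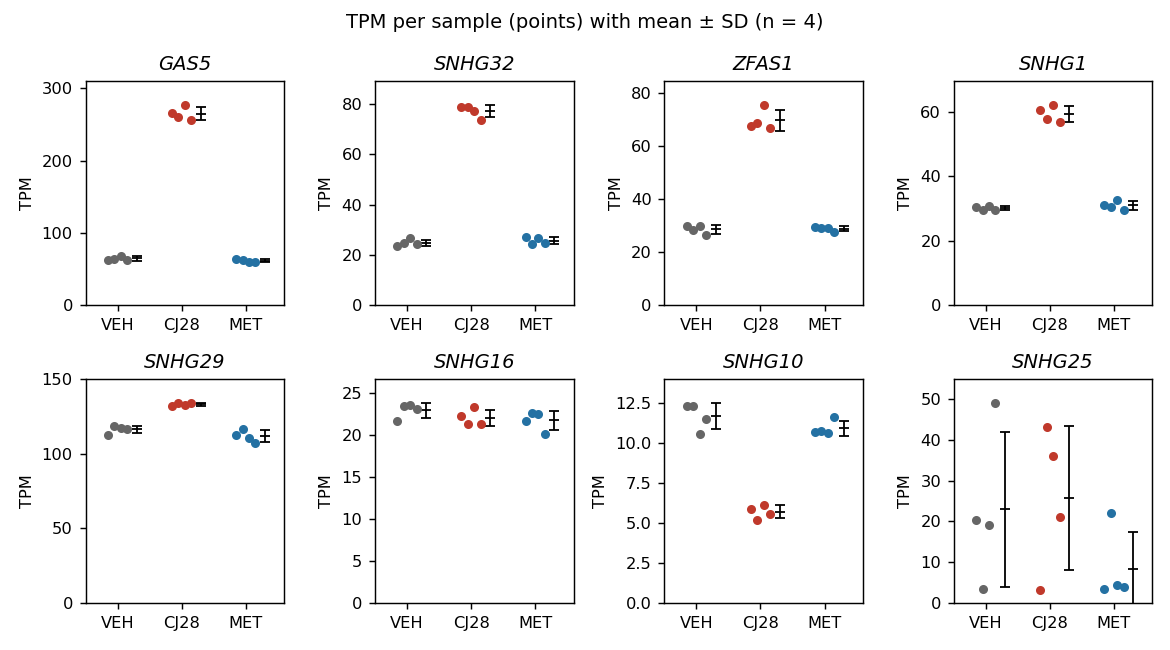
Points are the TPM of single samples of 8 hosts in VEH, CJ28 and MET, on axes that start at 0, and the bar beside each group is the mean ± SD (n = 4). GAS5, SNHG32, ZFAS1 and SNHG1 are raised in CJ28 only, SNHG29 is raised by little, SNHG16 overlaps, SNHG10 is lowered, and SNHG25 takes low and high values in all 3 groups.

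At the low end of the rise, SNHG11 gave 5.60, 5.09, 4.25 and 4.79 TPM in VEH and 6.41, 5.77, 6.11 and 6.22 TPM in CJ28 (log2 fold change 0.31, SE 0.084, adjusted p = 0.00669). SNHG29, the most abundant host of VEH cells, gave 113, 119, 117 and 116 TPM in VEH and 132, 134, 132 and 134 TPM in CJ28 (0.19, SE 0.029, adjusted p = 1.03e-04). Both were without overlap, so that a host with a high level and little spread was called at a fold of 1.14. SNHG6 rose by 0.14 on the log2 scale (SE 0.053, adjusted p = 0.0364), but its VEH samples (45.6 to 50.6 TPM) and CJ28 samples (50.2 to 57.5 TPM) overlapped, and it kept the call in 13 of 21 alternative fits. The 11 hosts without overlap kept theirs in all 21. CJ28 replicate 4 held the lowest CJ28 value in 9 of the 12 raised hosts, from GAS5 to SNHG5, and without it 12 hosts were still called higher, with a log2 fold change of 2.05 for GAS5 and 1.14 for SNHG15.

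In the exact permutation test of the group means, two-sided, these 11 hosts and SNHG10 each reached p = 0.0286, the smallest that 4 against 4 samples allow. The labels number the samples 1 to 4 in each group and name no separate cultures, so p-values measure the spread between these samples.

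SNHG10, whose span holds SCARNA13, a small RNA of Cajal bodies, was the only host that fell without overlap. It gave 12.3, 12.4, 10.6 and 11.5 TPM in VEH and 5.88, 5.22, 6.15 and 5.55 TPM in CJ28. Its log2 fold change was -1.02 (SE 0.064, 95% interval -1.16 to -0.88, adjusted p = 3.84e-08), and it was called lower in all 21 alternatives, with log2 fold changes of -1.07 to -0.82. SCARNA13 itself was called higher by a small step, at 245 ± 12.4 TPM in VEH and 274 ± 21.1 TPM in CJ28 (log2 fold change 0.16, adjusted p = 0.0212). The 2 genes overlap on one strand, and RSEM may divide reads between them.

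The other 2 lower calls were weak. SNHG9 gave 20.3, 19.2, 26.2 and 25.7 TPM in VEH and 19.9, 14.2, 19.5 and 18.3 TPM in CJ28 (log2 fold change -0.34, SE 0.14, adjusted p = 0.048). SNHG21 gave 8.04, 7.59, 7.92 and 6.63 TPM in VEH and 6.16, 5.34, 7.85 and 5.45 TPM in CJ28 (-0.29, SE 0.11, adjusted p = 0.0385). In both the groups overlapped, and both calls were lost under either scaling and without VEH replicate 3, CJ28 replicate 2 or CJ28 replicate 4, each of which left 1 host lower.

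The remaining 12 hosts did not pass the threshold. SNHG17 (log2 fold change 0.18), SNHG12 (0.17), SNHG30 (0.15), SNHG19 (0.11) and SNHG14 (0.09) passed it as higher under both scalings, relative to an all-gene median that the scalings move to near 0. SNHG14, the very long imprinted host from the Prader-Willi region that runs antisense to UBE3A, gave 18.9 ± 1.31 TPM in VEH and 20.1 ± 1.26 TPM in CJ28. SNHG26 (0.07), SNHG22 (0.05), SNHG4 (-0.02), SNHG3 (-0.07) and SNHG20 (-0.21) passed under neither scaling. SNHG16 was at -0.06 and turned to 0.15 with an adjusted p of 0.0161 after rescaling to nuclear protein-coding genes. SNHG3, the host of the abundant SNORA73 snoRNAs, was thus at 13.4 ± 1.34 TPM in VEH and 12.8 ± 1.93 TPM in CJ28.

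SNHG25 could not be compared with any precision. It gave 20.2, 3.50, 19.2 and 49.1 TPM in VEH, 3.11, 43.1, 36.0 and 21.1 TPM in CJ28 and 3.49, 21.95, 4.47 and 3.84 TPM in MET. In all 3 groups there were samples under 5 TPM, 5 of the 12 in all, and the other 7 were over 19 TPM. The log2 fold change with CJ28 was 0.15 with an SE of 0.93. SNORA50C lies within this short gene, and in the 5 low samples of SNHG25 it ranged from 0.7 TPM (MET replicate 4) to 27.5 TPM (VEH replicate 2). Its coefficient of variation was 82.6% in VEH, 68.6% in CJ28 and 107% in MET, whereas the median over the hosts was 6.93%, 7.07% and 6.03%.

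Summed over the 27 hosts, TPM went from 618 ± 20.2 in VEH to 1060 ± 29.4 in CJ28, or from 0.0618% to 0.106% of all TPM. GAS5 made up 10.5 ± 0.536% of the sum in VEH and 24.9 ± 0.480% in CJ28. Without GAS5 the sum still went from 553 ± 20.1 to 798 ± 22.7 TPM. No VEH sample reached the lowest CJ28 sum (598 to 641 against 1020 to 1090 TPM).

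By the starts printed above, 3 of the 6 hosts with a TOP motif at the RefSeq start were higher in CJ28 (ZFAS1, SNHG32 and SNHG5) and 3 passed no threshold (SNHG12, SNHG4 and SNHG19). Of the 17 hosts without it, among them GAS5 and SNHG29, 7 were higher. By the start of the GENCODE canonical transcript, which gives the motif to GAS5, SNHG29, ZFAS1 and SNHG12, 3 of 4 with it and 9 of the other 23 hosts were higher. The motif TGATGNAA, bound by ATF4 with its partners, was searched on both strands of the 300-base RefSeq windows and was found in 0 of 23, against 3.62% of all windows and 2.04% of those of tested genes. This says only that these letters are not in these windows. The 3 hosts without an upstream stop, SNHG3, SNHG9 and SNHG25, were not among the 12 that rose. Of the 24 hosts with such a stop, 12 rose, 2 fell and 10 passed no threshold.

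The comparison of MET with VEH asked the same of an inhibitor of one enzyme, and no host was called. By limma, 0 of 27 hosts were higher and 0 lower, against 0.00595% of all genes called in either direction, and 1 host had an unadjusted p under 0.05, as did 874 of all genes. That host was SNHG20, with 3.85 ± 0.341 TPM in VEH and 3.21 ± 0.473 TPM in MET (log2 fold change -0.26, unadjusted p = 0.0342, adjusted p = 0.933). The median log2 fold change was -0.01 over the hosts and -0.03 over all genes, and 12 hosts were above and 15 below VEH. In no host did all MET samples lie above or below all VEH samples, as they did in 0.779% and 2.03% of all genes. Leaving out SNHG25 (-1.40, SE 0.93, adjusted p = 0.945), the values ran from -0.26 to 0.11.

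The hosts that rose with CJ28 stayed near the VEH level with MET. GAS5 gave 64.4, 62.2, 60.1 and 60.3 TPM in MET, SNHG32 gave 27.0, 24.2, 26.6 and 24.7 TPM, and ZFAS1 gave 29.7, 29.3, 29.1 and 27.5 TPM. In each of these hosts the MET and VEH samples overlap. For GAS5 they do so only through MET replicate 1, since the next highest MET sample (62.15 TPM) was just under the lowest VEH sample (62.18 TPM). Over the 12 hosts, log2 fold changes lay between -0.09 and 0.09, and no 95% interval reached below -0.32 or above 0.23. SNHG10 was at 10.9 ± 0.489 TPM in MET against 11.7 ± 0.837 TPM in VEH (-0.09, adjusted p = 0.955). The hosts' sum in MET was 598 ± 15.4 TPM, with GAS5 at 10.3 ± 0.302% of it.

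CJ28 and MET were given at the same dose and for the same time, so that they can be set against each other directly. CJ28 was higher in 12 hosts (44.4%) and lower in 2 (7.41%), against 20.9% and 34.6% of all genes. The same numbers of hosts, 12 and 2, had no overlap between the groups, against 18.9% and 31.3% of all genes, and the median log2 difference was 0.22 over the hosts and -0.11 over all genes. The largest differences were those of GAS5 (2.10, adjusted p = 9.11e-13), SNHG32 (1.59, adjusted p = 4.29e-11) and EPB41L4A-AS1 (1.37, adjusted p = 1.39e-06). SNHG17 was higher in CJ28 (10.1 to 12.1 TPM) than in MET (8.33 to 9.45 TPM), with a log2 difference of 0.32 and an adjusted p of 0.0085, and SNHG6 was not called (0.13, adjusted p = 0.059). SNHG10 (-0.93, adjusted p = 9.88e-08) and SNHG9 (-0.42, adjusted p = 0.0205) were lower, SNHG9 with every CJ28 sample below every MET sample. Under both scalings SNHG9 was no longer called, and 17 or 18 hosts were higher. All genes moved as well. Of 16815, 4824 (median of ratios) and 5715 (nuclear protein-coding) were then higher, in place of 3516. Lower were 4391 and 3738, in place of 5818. Both comparisons share the CJ28 samples.

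Genes of the same pathway were then examined from lists chosen with earlier results of these data known. Their counts are therefore descriptive and give no independent test. NMD factors, the proteins that find and destroy transcripts with an early stop, were mostly lower in CJ28 than in VEH: 16 of 25 were lower and 4 higher, with a median log2 fold change of -0.25. Over all genes tested, 37.1% were lower and 19.9% higher. UPF1, the central helicase, went from 9.90 ± 0.0785 to 7.31 ± 0.648 TPM (-0.44, adjusted p = 3.25e-05). PNRC2, a link between UPF1 and decapping, and EIF4A3, the helicase of the exon junction complex, fell by 0.69 and 0.55 on the log2 scale (adjusted p = 1.78e-07 and 1.17e-07). NBAS rose by 0.42 (adjusted p = 0.00203) and the 5′ exonuclease XRN1 by 0.35 (adjusted p = 0.02). The lower calls depend on the scaling, with 8 lower and 5 higher after median-of-ratios scaling and 7 lower and 7 higher after rescaling to nuclear protein-coding genes, where 23.4% and 33.1% of all genes were lower and higher. After median-of-ratios scaling 26.3% of all genes were lower and 29.3% higher.

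Coding transcripts that are known targets of NMD were higher in 7 of 8 cases and lower in none, with a median of 0.59. Over all genes tested, 19.9% were higher and 37.1% lower. DDIT3, a transcription factor of the integrated stress response, went from 16.8 ± 0.316 to 155 ± 8.29 TPM (3.20, adjusted p = 6.49e-14), and GADD45A, a stress-induced growth arrest protein, from 3.40 ± 0.502 to 13.6 ± 0.844 TPM (1.98, adjusted p = 3.22e-09). ATF4, the main effector of that response, went from 70.4 ± 2.62 to 84.1 ± 2.39 TPM (0.26, adjusted p = 3.61e-05). ARFRP1 did not pass (0.35, adjusted p = 0.0583). All 8 were higher under both scalings, where 29.3% (median of ratios) and 33.1% (nuclear protein-coding) of all genes were higher. Several genes of this list are also transcribed at a higher rate in the integrated stress response, and transcription and decay cannot be told apart in these data.

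**Figure D4:**
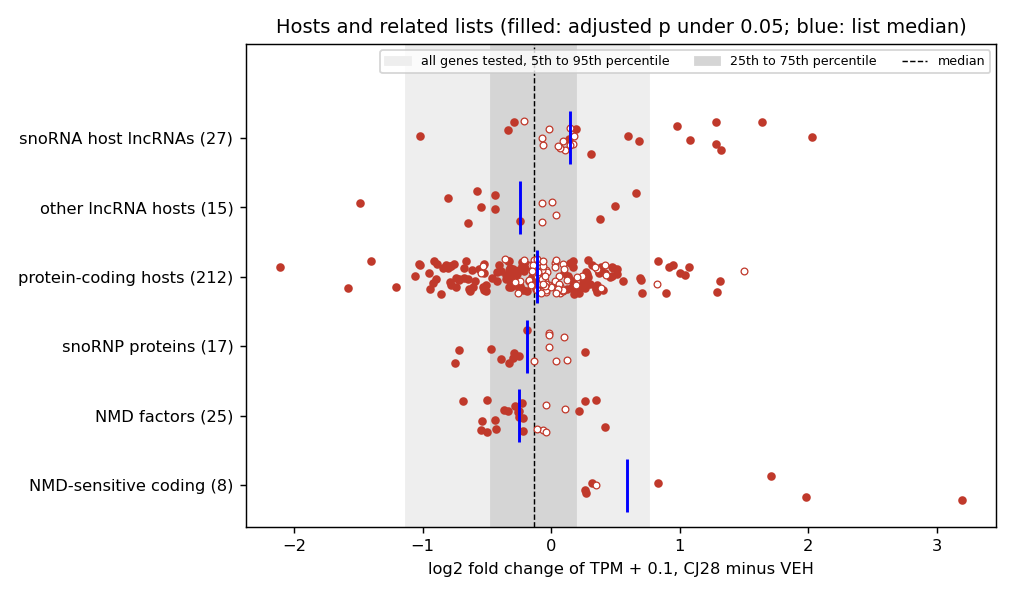
Each point is the limma log2 fold change of 1 gene for CJ28 minus VEH, by list (number of tested genes in brackets), filled where the adjusted p was under 0.05, with the list median in blue. Grey bands span the 5th to 95th and 25th to 75th percentiles of all 16815 genes, and the dashed line is the all-gene median of -0.13. The hosts (median 0.15) and the NMD-sensitive coding transcripts (median 0.59) lie above it, and the protein-coding hosts (median -0.11) lie close to it.

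Other genes that hold a snoRNA within their span were counted in the same way. Of 49 lncRNA genes of other names with a snoRNA on the same strand, 15 were tested, of which 3 were higher and 8 lower (median -0.24). This list is not fully separate from the hosts. AL671762.1, called lower (-0.44), overlaps SNHG32 on the same strand, and AC124312.3, not called (-0.07), overlaps SNHG14 in the same way. AC019080.1 (0.66) and UBA6-AS1 (0.50) rose the most among those past the threshold, and AC007952.4 (-1.49) and AC016876.3 (-0.80) fell the most. DANCR, another well known host, fell by 0.65 on the log2 scale from 23.7 ± 1.48 TPM in VEH (adjusted p = 2.23e-07), a value picked out after the list had been seen. Of 255 protein-coding hosts, 212 were tested, with 53 higher (25%) and 88 lower (41.5%) and a median of -0.11, close to the 19.9%, 37.1% and -0.13 of all genes. This list too is not fully separate from the hosts, since RCC1, a member of it, overlaps SNHG3 on the same strand. CCNB1IP1 (1.31) and the isoleucyl-tRNA synthetase gene IARS1 (1.29) rose the most among those past the threshold, and AC011452.2 (-2.11) and PLPPR1 (-1.58) fell the most. Among the 27 ribosomal protein genes in that list 13 were higher and 7 lower (median 0.07), and among the other 185 genes 40 were higher and 81 lower (median -0.13). No test compared these lists with the hosts.

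The proteins that assemble with snoRNAs were lower in 9 of 17 cases and higher in 1, with a median of -0.19, where 37.1% of all genes were lower and 19.9% higher. NOP56, a core protein of box C/D particles, went from 66.4 ± 3.94 to 40.3 ± 0.522 TPM (-0.72, adjusted p = 2.21e-08), and SHQ1, an assembly factor of H/ACA particles, from 6.41 ± 1.22 to 3.72 ± 0.244 TPM (-0.75, adjusted p = 1.27e-04). The chaperone subunit PIH1D1 rose by 0.26 (adjusted p = 3.75e-05). Both scalings left 5 of the 17 lower and 5 higher.

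The snoRNAs inside the hosts were measured only in part. The table listed 135 within the spans of 22 hosts, 84 of them in SNHG14, and 111 were at 0 in all 12 samples, including all 84. Some entries overlap at the same locus, such as those of SNORA17B in SNHG7, so these are counts of entries and not of loci. All 108 with a span under 104 nucleotides, which takes in most box C/D snoRNAs, were listed at 0, and the shortest with a value was 125 nucleotides long. A value of 0 for RNAs of this length in such a library says nothing of their presence. The search took genes of the snoRNA class on the strand of the host. It found none within 5 hosts, GAS5, SNHG10, SNHG20, SNHG21 and SNHG22, so snoRNAs of GAS5 were not analysed here. SNHG10, SNHG20, SNHG21 and SNHG22 each overlapped a SCARNA gene on the same strand. Outside SNHG14, the canonical transcript had 47 snoRNAs in introns and 4 in exons.

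Of the 23 hosted snoRNAs past the filter, in 12 hosts, 4 were higher with CJ28 (17.4%) and 1 lower (4.35%). Over all genes tested, 19.9% were higher and 37.1% lower, so the share of higher snoRNAs was no larger than that of all genes. The median log2 fold change over the 23 was 0.31, but several were low and variable, with SEs of up to 1.9. SNORA73A rose from 999 ± 56.8 TPM in VEH (0.32, adjusted p = 8.21e-05). SNORA73B went from 757 ± 50.9 to 935 ± 39.8 TPM (0.31, adjusted p = 1.06e-04). Their host SNHG3 was at -0.07. RCC1, a coding gene that overlaps SNHG3 on the same strand, was at -0.82 (adjusted p = 2.36e-07). RCC1 is itself listed as a snoRNA host, possibly of the same snoRNAs. SNORA71A, in SNHG17, rose by 0.56 (adjusted p = 0.00651), and SNORA74A, in SNHG4, by 0.48 with overlapping groups (adjusted p = 0.0201). With MET both were at 0.36 against VEH (adjusted p = 0.933), SNORA74A with every MET sample above every VEH sample. Between CJ28 and MET, SNORA71A (0.20, adjusted p = 0.268) and SNORA74A (0.12, adjusted p = 0.553) were not called. SNORA73A (0.26, adjusted p = 5.03e-04) and SNORA73B (0.17, adjusted p = 0.0063) were higher in CJ28. SNORA24, in SNHG8, went the other way from its host, from 8.03 ± 1.90 to 2.23 ± 2.64 TPM (-3.56, SE 1.18, adjusted p = 0.021). Its CJ28 samples were at 0, 3.74, 5.17 and 0 TPM, so the size of -3.56 depends on the pseudocount of 0.1. Without CJ28 replicate 1 the count of lower snoRNAs was 0. Copies of a snoRNA family share sequence, so RSEM's division of reads among the SNORA71 genes is uncertain. The SNORA17B entries overlap at the same locus in SNHG7, so the division of reads between them is uncertain too. They are counted separately among the 23.

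Genes beside the hosts were examined because some start next to a host and overlapping genes can share reads. A total of 54 genes overlapped a host or started within 2000 bases of it on the other strand, around 23 of the 27 hosts. Of the 34 that were tested, 8 were higher with CJ28 (23.5%) and 11 lower (32.4%), close to the 19.9% and 37.1% of all genes, and 23 lay on the other strand. SLC3A2, a heavy chain of amino acid transporters whose start is 149 bases from that of SNHG1, went from 54.8 ± 2.08 to 217 ± 2.86 TPM (1.98, adjusted p = 1.56e-13), beside 0.98 for SNHG1. GLRX5, an iron-sulfur cluster protein that overlaps SNHG10, went from 37.6 ± 0.559 to 23.0 ± 0.590 TPM (-0.71, adjusted p = 3.44e-09), beside -1.02 for SNHG10.

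No tested neighbour of GAS5, SNHG32, EPB41L4A-AS1, ZFAS1 or SNHG7 was called higher. ZBTB37, which overlaps GAS5 on the other strand with a start 800 bases from that of GAS5, was at -0.62 (adjusted p = 2.34e-04). ZNFX1, with a start 248 bases from that of ZFAS1, was at -0.06 (adjusted p = 0.436). EPB41L4A was at -0.35 (adjusted p = 0.358), and AL671762.1, on the strand of SNHG32, was at -0.44 (adjusted p = 0.00231). Beside SNHG3, which was not called, RCC1, which starts 37 bases from SNHG3 on the same strand, was at -0.82 (adjusted p = 2.36e-07), and beside SNHG9, which was called lower, the ribosomal protein gene RPS2 was at 0.02 (adjusted p = 0.643). The strand setting of the authors' quantification is not given in the sources used here, so reads of overlapping genes on opposite strands may not have been kept apart.

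**Figure D5:**
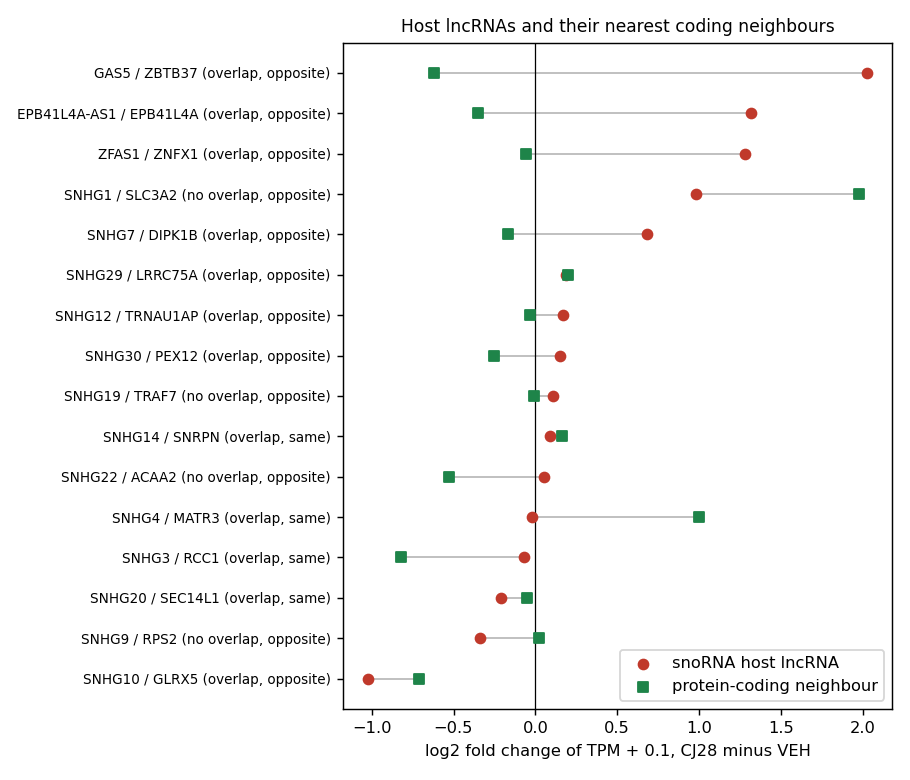
Circles are the log2 fold changes (CJ28 minus VEH, TPM + 0.1) of host lncRNAs and squares those of the tested protein-coding neighbour with the nearest start, joined by a line, with the overlap and relative strand given in brackets. SLC3A2 lies to the right of SNHG1 and GLRX5 to the left of 0 with SNHG10, while the squares beside GAS5, EPB41L4A-AS1, ZFAS1 and SNHG7 lie left of 0.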

How the data were processed

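Total RNA of 12 samples of NCI-H295R cells, 4 per group, was sequenced in paired-end stranded libraries after removal of ribosomal RNA. Per the labels, the authors used Cutadapt (version 2.8), STAR (version 2.7.10b) on GRCh38 and RSEM (version 1.3.3), which divides reads among similar or overlapping genes. The annotation release and strand setting are not given in the sources used here. The deposited values are TPM to 2 decimals. TPM keeps no depth, so no count model, counting interval or detection limit was used, and the reads behind a value are unknown. Being a share, it is lowered in a gene when others take more.

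Limma (version 3.58.1, in R version 4.3.3) was run on log2(TPM + 0.1), using lmFit and eBayes with its trend option. The fit held all 12 samples and the 16815 genes that reached 0.5 TPM in 4 or more of them. P-values were two-sided and adjusted by the Benjamini-Hochberg method over all these genes. The pseudocount shrinks fold changes of low genes, and sets the size of those with samples at 0. Single hosts were also compared by exact permutation tests of group means. Python (version 3.11.15) with numpy (version 2.4.6), pandas (version 2.3.3) and matplotlib (version 3.10.9) made summaries and figures. Sequences came from RefSeq (GRCh38.p14) and GENCODE v44 transcripts.

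Members and lists were chosen with earlier results of these data known. Every member is named. Values of every sample are given for GAS5, ZFAS1, EPB41L4A-AS1 and SNHG1, for up to 6 more hosts that rose most and up to 6 that fell most with CJ28, and, chosen after values were seen, for SNHG29 and SNHG25. From each other list the 2 largest rises and falls among genes with an adjusted p under 0.05 are named (for hosted snoRNAs, all that passed), with ATF4 and UPF1. Neighbours are genes that overlap a host or start within 2000 bases of its start on the other strand. Alternatives were pseudocounts of 1 and 0.01, all genes above 0, only genes with a mean of at least 1 TPM, scaling by median-of-ratios factors or to nuclear protein-coding genes, a fit of 2 groups alone, a replicate block, no variance trend, and leaving out each sample in turn.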

Additional observations from a re-analysis of the deposited data

Results flagged for a closer look

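In 81 groups of 4 samples (27 hosts in 3 groups), 5 had a lowest or highest sample far from the other 3, where chance gives about 1 in 20 groups. SNHG25 gave 21.95 TPM in MET replicate 2 and 3.49 to 4.47 TPM in the others. SNHG22 gave 13.14 TPM in VEH replicate 4 and 10.84 to 10.96 TPM in the others. SNHG10 gave 11.66 TPM in MET replicate 4, above 10.61 to 10.76 TPM. SNHG5 gave 67.85 TPM in CJ28 replicate 4, below 72.24 to 72.92 TPM, and SNHG15 gave 24.97 TPM in MET replicate 2, above 23.03 to 23.28 TPM. None of these samples changed a call of its host against VEH when it was left out.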

How the results depend on the processing

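With CJ28 against VEH, 11 hosts stayed higher and SNHG10 lower in all 21 alternatives, and with MET 0 hosts were called in any. Higher hosts numbered 11 to 13 when single samples were left out (12 to 15 against MET). Lower hosts (3) became 1 with all genes above 0, under both scalings, with only the 2 groups compared and without a variance trend, and were 1 to 3 when single samples were left out. Against MET the 2 lower hosts became 1 with all genes above 0 and under both scalings, and 1 to 3 with samples left out (1 without CJ28 replicate 2 or MET replicate 3). SNHG16 turned from -0.06 to 0.15 under rescaling to nuclear protein-coding genes. Over the 27 hosts' log2 fold changes, 521 alternative values kept the side of the threshold (16 of them with another sign, all in hosts that were not called), 30 lost a call and 14 gained one.

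Lists moved mainly with the scaling. NMD factors went from 4 higher and 16 lower to 8 lower (median of ratios), and to 7 higher and 7 lower (nuclear protein-coding). SnoRNP proteins went from 1 higher and 9 lower to 5 and 5 under both, with 2 higher at a pseudocount of 1 or a mean TPM of at least 1, and 1 to 2 with samples left out (2 without VEH replicate 1, MET replicate 2 or MET replicate 3). Other lncRNA hosts went from 3 higher and 8 lower to 5 and 5, and to 6 and 3. Protein-coding hosts went from 53 higher and 88 lower to 78 and 53, and to 86 and 47. Hosted snoRNAs went from 1 lower to 0 with all genes above 0, and 0 to 1 with samples left out.

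Same-numbered samples did not deviate together (mean correlation 0.024 between VEH and CJ28, -0.024 between VEH and MET, -0.048 between CJ28 and MET). The labels do not say whether same-numbered samples were handled together, and weak correlations cannot decide it. With the replicate number as a block, 12 hosts were higher and 3 lower with CJ28, 0 with MET, and 12 and 2 against MET. TPM gives no read numbers, so the precision rests on 4 samples per group.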
